A study of Mus musculus with 21 samples.

Results

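The E proteins and their Id inhibitors were followed in *Ebf1*-deficient lymphoid progenitors (LPs), a mouse cell line of the C57BL6/J strain that grows on OP9 stromal cells with SCF, IL-7 and Flt3L. The set was chosen by name and holds 6 genes of the 55421 with an identifier in the RNA table: *Tcf3*, *Tcf4*, *Tcf12*, *Id1*, *Id2* and *Id3*. LPs used for RNA carried Cas9-GFP and a retrovirus that expressed a pool of 2 single-guide RNAs (sgRNAs) with an hNGFR marker, directed against luciferase (sgControl, written sgCont in the sample labels), *Lmo2*, *Zbtb1*, *Cbfa2t2* or *Cbfa2t3*. GFP+hNGFR+ cells were collected 5 days after sgRNA introduction without Notch stimulation, with 3 libraries for each of the 5 conditions, and LPs without sgRNA were used for ChIP-seq of Zbtb1 and Cbfa2t3. The model is 1 cell line and the guides are pooled, so the libraries do not separate clones or single guides. The study's methods call the replicates biologically independent, while the labels do not name separate cultures, and p-values measure the spread between libraries of this line. RNA levels come from tags at the 3′ ends of mRNAs and are given as TPM, the name the table uses for tags scaled to each library's total, without division by gene length.

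E proteins are basic helix-loop-helix transcription factors that pair with each other or with tissue-restricted partners such as Tal1 and Lyl1 and bind the E-box, CANNTG. *Tcf3* encodes E12 and E47, *Tcf12* encodes HEB and *Tcf4* encodes E2-2, and their products are needed for the earliest steps of B and T lymphocyte development. Id proteins have the helix-loop-helix without the basic region, so a pair of an Id and an E protein does not bind DNA, and Id2 is known for its part in the development of NK and other innate lymphoid cells. Lmo2 bridges such pairs to Ldb1, and Cbfa2t2 and Cbfa2t3 are ETO family corepressors that can contact E proteins.

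*Id2* was the member whose mRNA differed between conditions. Its mean level was 104 ± 23.8 TPM (SD, n = 3) in the libraries labelled sgZbtb1, 157 ± 24.6 TPM in sgControl and 221 ± 31.6 TPM in sgCbfa2t3. It was lower in sgZbtb1 than in sgControl (adjusted p = 0.00183, beside 4.79% of all genes called). This call was lost without sgControl replicate 2 (0.0503) or sgZbtb1 replicate 1 (0.0654) and under the study's thresholds. The log2 difference ran from -0.76 to -0.43 over the alternatives. *Id2* was 2.13-fold higher in sgCbfa2t3 than in sgZbtb1 (adjusted p = 1.5e-08, beside 1.13% of all genes called). Its difference from sgControl in sgCbfa2t3 missed the threshold (limma, adjusted p = 0.0599, beside 0.537% of all genes called). *Tcf4* lay below every sgControl library in all 12 libraries with another sgRNA, as did 0.606% of genes, in 4 comparisons that share the same 3 controls. It did not pass the main limma fit in any condition. In sgLmo2 it passed in 2 alternatives, DESeq2 (adjusted p = 0.0215) and a limma fit with the replicate number as a block. No difference passed for *Tcf3*, *Tcf12* or *Id1*, and *Id3* was too low to test.

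The libraries held 1705416 to 2095447 recovered reads, and 3 reads, taken as the floor, were worth 1.43 to 1.76 TPM. Replicates of a condition correlated at 0.985 to 0.988 across genes and differed by more than sampling noise. None was therefore counted as a copy of another, which does not show that they came from separate cultures. The 10 lymphoid progenitor markers listed, such as *Il7r*, *Flt3* and *Kit*, all had a mean above 1 TPM. The mRNAs of the targeted genes were not depleted: *Zbtb1* was at 94.4 to 113 TPM in sgZbtb1 and 55.7 to 66.6 TPM in sgControl, *Cbfa2t3* at 340 to 364 TPM in sgCbfa2t3 and 172 to 210 TPM in sgControl, *Cbfa2t2* at 16.4 to 25.5 TPM in sgCbfa2t2 and 11.0 to 12.3 TPM in sgControl, and *Lmo2* at 8.48 to 24.4 TPM in sgLmo2 and 15.8 to 23.2 TPM in sgControl. These 3′ tags can lie outside an edited stretch and do not check the loss of the proteins, which the study examined by immunoblotting (not analysed here), so each direction below belongs to the libraries labelled with that sgRNA. The 3′ tags of *Ebf1* were also present (336 ± 30.5 TPM in sgControl, SD, n = 3) and likewise say nothing of its disrupted allele.

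By nearest gene, the ChIP-seq lists place Zbtb1, Cbfa2t3 or both at 4 of the 6 genes, and both at *Tcf3* and *Id3*. In mm10, *Tcf3* spans chromosome 10, 80409514 to 80433647 (minus strand), *Tcf12* chromosome 9, 71842688 to 72111871 (minus strand), *Id2* chromosome 12, 25093799 to 25097140 (minus strand) and *Id3* chromosome 4, 136143497 to 136145755 (plus strand). Each list holds peaks that were reproducible between 2 replicates and has a single score per peak, so the peaks carry no replicate error. The Cbfa2t3 list assigned 11 of its 6077 peaks to a member as nearest gene, 5 to *Tcf12*, 4 to *Id3* and 2 to *Tcf3*. The Zbtb1 list assigned 4 of its 5898 peaks, 2 to *Tcf3* and 1 each to *Id2* and *Id3*. *Id1* (chromosome 2, 152736251 to 152737410, plus strand) and *Tcf4* (chromosome 18, 69343356 to 69689079, plus strand) were the nearest gene of no peak in either list.

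Many genes are the nearest gene of a peak. Of the genes tested for RNA, 20.5% had at least 1 Cbfa2t3 peak and 26.8% at least 1 Zbtb1 peak, while 0.615% had at least 5 Cbfa2t3 peaks, as *Tcf12* did, and 1.27% had at least 4, the number at *Id3*. By position, 9 of the 15 member peaks were intergenic, 3 lay at promoters, 2 in introns and 1 in an exon. Member Cbfa2t3 peaks were not among the strongest of their list. Their scores ran from 20.7 to 49.4 beside a list median of 33.2, and 7 of the 11 were below that median.

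Cbfa2t3 peaks at the members were rich in E-boxes, as its peaks were in general. Within the central 200 bp, CAGCTG or CAGGTG on either strand was found in 9 of the 11 member peaks, all but those at the *Tcf3* and *Tcf12* promoters, and in 69.9% of all Cbfa2t3 peaks. CAGCTG alone was in 6 of the 11, beside 47.4% of the list. None of the 4 Zbtb1 member peaks held either, beside 27.2% of the Zbtb1 list. Both hexamers are forms of CANNTG, which was in 89.3% of all Cbfa2t3 windows and 53.6% of all Zbtb1 windows. A match is a string of letters and not a shown site. To show such E-boxes in Cbfa2t3 peaks, 5 windows are printed, 4 from the member peaks and 1, labelled *Id2* upstream, from a peak 92.2 kb from *Id2* that the list assigned to another gene. They are from the mm10 reference, 5′ to 3′ on the plus strand, with the hexamer CAGCTG in capitals, as well as CAGGTG, which reads CACCTG where it lies on the other strand.

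*Tcf3*, chr10:80444450-80444649: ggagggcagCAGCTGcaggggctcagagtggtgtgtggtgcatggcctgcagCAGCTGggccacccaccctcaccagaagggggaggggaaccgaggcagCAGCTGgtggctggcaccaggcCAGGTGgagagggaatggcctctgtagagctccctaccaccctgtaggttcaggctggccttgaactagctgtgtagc
*Tcf12* upstream, chr9:72130031-72130230: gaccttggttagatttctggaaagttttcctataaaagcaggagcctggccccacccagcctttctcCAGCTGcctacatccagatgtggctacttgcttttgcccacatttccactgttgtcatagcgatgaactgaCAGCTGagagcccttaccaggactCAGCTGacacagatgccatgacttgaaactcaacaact
*Tcf12* intron 3, chr9:72097211-72097410: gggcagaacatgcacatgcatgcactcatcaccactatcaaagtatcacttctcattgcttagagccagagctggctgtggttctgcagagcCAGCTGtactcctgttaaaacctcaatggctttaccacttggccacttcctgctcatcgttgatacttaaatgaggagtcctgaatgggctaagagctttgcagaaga
*Id3*, chr4:136120156-136120355: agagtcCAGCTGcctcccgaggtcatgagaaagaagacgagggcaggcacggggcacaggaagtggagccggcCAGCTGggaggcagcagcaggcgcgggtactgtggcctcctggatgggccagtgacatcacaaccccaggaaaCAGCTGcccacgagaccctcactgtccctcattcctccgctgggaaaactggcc
*Id2* upstream, chr12:25189291-25189490: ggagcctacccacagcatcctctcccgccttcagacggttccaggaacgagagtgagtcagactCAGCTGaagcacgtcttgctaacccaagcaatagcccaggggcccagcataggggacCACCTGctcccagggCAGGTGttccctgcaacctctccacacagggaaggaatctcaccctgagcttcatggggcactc

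At *Tcf3*, both factors had a promoter peak. The Zbtb1 peak (chr10:80433404-80433774) was centred 64 bp after the start site and its score of 86.2 exceeded 89.1% of the Zbtb1 list. The Cbfa2t3 peak (chr10:80433632-80434010) was centred 168 bp before it and its score of 20.8 exceeded 1.3% of its list. They overlapped by 143 bp, 37.7% of the wider peak. A further Zbtb1 peak 5816 bp upstream (score 26.1) lay in a simple TG repeat, and a further Cbfa2t3 peak 10896 bp upstream (score 21.9) held the 3 CAGCTG and 1 CAGGTG of the *Tcf3* sequence printed here.

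*Tcf12* had 5 Cbfa2t3 peaks and no Zbtb1 peak. They lay 55085 bp (score 30.2), 18311 bp (24.8) and 130 bp (20.7) before the start site, the last at the promoter, and 13891 bp (33.3) and 22126 bp (26.8) after it, in intron 3 of 20. The peak 18311 bp upstream held 3 CAGCTG, and the stronger intronic peak held 1, both shown in the printed sequences.

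Peaks assigned to *Id3*, whose mRNA was at the floor, lay 42906 bp, 31227 bp and 23567 bp before and 4144 bp after its start site in the Cbfa2t3 list, with scores of 28.4, 46.4, 34.6 and 49.4. The peak 23567 bp upstream held the 3 CAGCTG of the printed *Id3* sequence. A Zbtb1 peak (score 30.6) 43207 bp upstream overlapped the farthest of them by 74 bp, 19.5% of the wider peak. *Tcf3* and *Id3* therefore each had a site where the lists overlapped by at least 1 bp, and over the whole lists 25.2% of Zbtb1 peaks and 24.4% of Cbfa2t3 peaks overlapped in this way. When the overlap had to cover 50% of both peaks, 0 of these 2 sites was shared, while 22.8% of all Zbtb1 peaks still were.

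*Id2* had a weak Zbtb1 peak in its exon 2 of 3 (chr12:25095174-25095544, score 16.6, above 9.5% of the list) and was the nearest gene of no Cbfa2t3 peak. A distance rule added after seeing the data gave another picture. Counting every peak centred within 100 kb of the annotated gene start, whichever gene was nearest, *Id2* had 5 Cbfa2t3 peaks, all upstream, at 67.8, 68.8, 81.8, 92.2 and 93.4 kb. Their scores were 71.4, 45.2, 32.9, 359.8 and 180.1, and the peak at 92.2 kb ranked 28 of 6077. The list named *Gm17746*, a lincRNA listed at 0 in all 15 libraries, as their nearest gene. Each of the 5 windows held at least 1 CAGCTG, and the strongest, printed here for *Id2*, also held 2 CAGGTG. At least 5 Cbfa2t3 peaks within 100 kb were found for 8.31% of tested genes with a gene model. *Id2* did not stand alone under this rule. *Id3* had 6 Cbfa2t3 peaks, and the strongest of them, 34.4 kb after its start and assigned to *E2f2*, scored 360.6, ranked 27 and was overlapped by a Zbtb1 peak of score 423.2 that ranked 43 of 5898. *Tcf12* had 5 Cbfa2t3 peaks, *Id1* 3 (scores 22.4, 80.5 and 73.3) and *Tcf3* 3. In the Zbtb1 list *Tcf3* had 7 peaks within 100 kb, the highest with a score of 104.2, beside 6.47% of tested genes with at least 5, *Id3* had 3, *Id2* 1, and *Tcf12* and *Id1* none. *Tcf4* had none in either list.

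**Figure D1:**
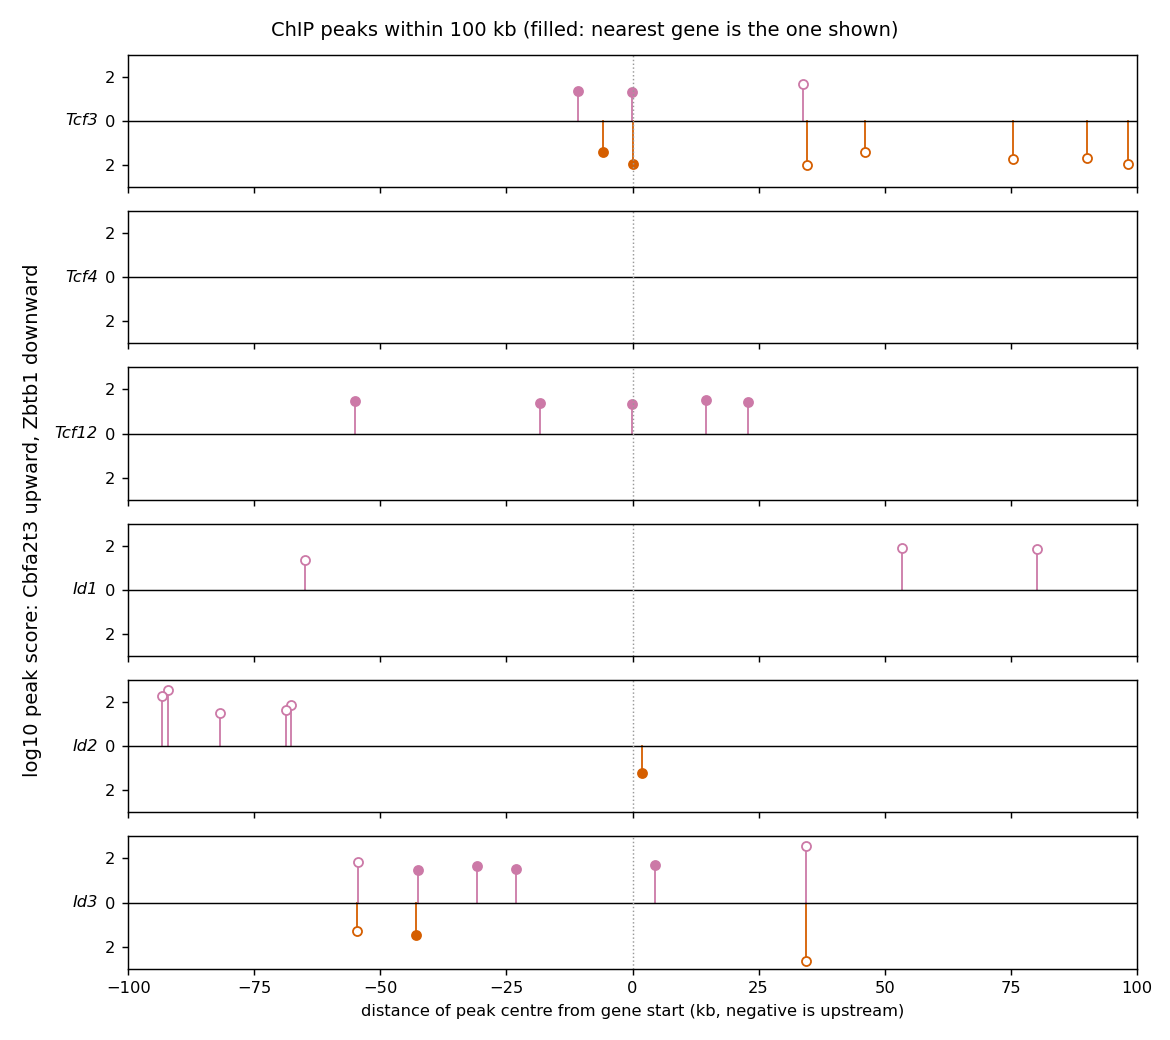
Peaks of Cbfa2t3 (upward) and Zbtb1 (downward) within 100 kb of each member's annotated gene start, with the distance of the peak centre in kb on the x axis and the log10 peak score on the y axis. Filled points have the gene shown as their nearest gene, and a reader should see the 5 open Cbfa2t3 points upstream of *Id2*, the open pair of strong points 34.3 and 34.4 kb after the *Id3* start, the 5 filled ones at *Tcf12*, the 7 Zbtb1 points at *Tcf3* and the empty *Tcf4* panel.

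Among the inhibitors, *Id2* supplied nearly all of the Id tags. It made up 95.0 to 99.6% of the summed *Id1*, *Id2* and *Id3* TPM across the 15 libraries, and the fourth family member, *Id4*, was listed at 0 in every library. In sgControl the 3 libraries had 134.2, 182.9 and 153.0 TPM of *Id2*. The sgLmo2 libraries had 154.4, 158.4 and 154.5 TPM, inside that range. In sgZbtb1 the values were 81.0, 128.6 and 102.6 TPM, all below sgControl. The libraries of these 2 groups did not overlap for 22.9% of all genes and were all lower in sgZbtb1 for 12.8%. The sgCbfa2t2 libraries had 133.0, 181.3 and 178.2 TPM, overlapping sgControl. In sgCbfa2t3 they were 206.4, 256.9 and 198.9 TPM, above each library of the other 4 conditions. In 15.8% of all genes the sgCbfa2t3 and sgControl libraries did not overlap.

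The difference of *Id2* in sgZbtb1 from sgControl was -0.60 on the log2(TPM + 1) scale (SE 0.13, 95% interval -0.86 to -0.34, adjusted p = 0.00183), a fold of 0.66. Of all genes tested, 4.79% were called in this comparison, and 2.94% were called lower. The call was lost when either of 2 libraries was left out. The adjusted p was then 0.0503 (sgControl replicate 2) or 0.0654 (sgZbtb1 replicate 1), while the difference stayed between -0.76 and -0.43 over all alternatives. The call was also lost under the study's thresholds, which ask for a log2 change above 1 and which 1.66% of genes met. *Id2* was lower in sgZbtb1 than in sgLmo2 too (-0.60, SE 0.13, adjusted p = 0.00142, or 0.0611 without sgZbtb1 replicate 1), where 5.06% of genes were called, and 0.66 higher in sgCbfa2t2 than in sgZbtb1 (SE 0.13, adjusted p = 0.000701), where 2.27% were.

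In sgCbfa2t3 the difference of *Id2* from sgControl was 0.49 (SE 0.13, 95% interval 0.23 to 0.76, 1.41-fold), with an adjusted p of 0.0599 that missed the threshold. It was under 0.05 in several fits, among them edgeR (0.0336) and DESeq2 (0.0478) on the recovered reads and the 6 libraries alone (0.0306). The same held for median-of-ratios scaling (0.0481) and the fits without sgControl replicate 2 (0.0411) or sgCbfa2t3 replicate 3 (0.0471). Over all alternatives the range was 0.0112, in a limma fit with the replicate number as a block, to 0.376. Of all genes 0.537% were called in this comparison. The direct comparison of sgCbfa2t3 with sgZbtb1 gave 1.09 (SE 0.13, 95% interval 0.83 to 1.36, adjusted p = 1.5e-08), where 1.13% of genes were called, and it was called under all 9 alternatives run, with adjusted p between 1.05e-11 and 7.72e-06. Against sgLmo2 the difference of sgCbfa2t3 was 0.49 (adjusted p = 0.0526), with 0.736% of genes called. The adjusted p was under 0.05 in 3 alternatives, edgeR (0.0145), the fit without sgCbfa2t3 replicate 3 (0.0497) and the replicate block. Against sgCbfa2t2 the difference was 0.43 (adjusted p = 0.432), with 0.0779% called. In the order of the group means, sgCbfa2t3, sgCbfa2t2, sgControl, sgLmo2 and sgZbtb1, the neighbours at each end were apart and the 3 in the middle overlapped. The libraries of sgCbfa2t3 and sgCbfa2t2 did not overlap for 10.7% of all genes, and those of sgLmo2 and sgZbtb1 for 21.8%.

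Of 12 listed markers of NK and innate lymphoid cells, which express *Id2*, 5 were tested and 2 were called in sgZbtb1, both lower, beside 4.79% of all genes called. *Il2rb*, the IL-2 and IL-15 receptor beta chain, fell from 50.2 ± 11.7 to 13.9 ± 5.08 TPM (SD, n = 3, log2 difference -1.81, SE 0.22, adjusted p = 1.16e-08), and *Nkg7*, a cytotoxic granule protein, from 7.57 ± 2.07 to 0.904 ± 1.18 TPM (-2.32, SE 0.49, adjusted p = 0.00107). The other 3 did not pass, with *Prf1* at 5.43 and 3.55 TPM, *Klrd1* at 2.13 and 1.07 TPM, and *Zbtb16* on the other side at 5.81 and 7.93 TPM in sgControl and sgZbtb1. The summed level of the 12, most of it *Il2rb* in sgControl, was 19.6 to 39.1 TPM in sgZbtb1 and 58.0 to 90.6 TPM in sgControl. The defining genes *Ncr1* and *Tbx21* were listed at 0 in all libraries, and in sgCbfa2t3, where *Id2* was highest, the sum was 54.8 to 60.0 TPM. The stromal sum over 17 OP9 genes in the table was 4.42 to 6.14 TPM in sgZbtb1 and 11.0 to 15.7 TPM in sgControl. Of the 17, 7 were at 0 throughout, *Col3a1*, *Dcn*, *Lum* and *Postn* among them. Only 2 were tested, *Pdgfrb* (7.19 and 2.7 TPM in sgControl and sgZbtb1) and *Timp3* (4.45 and 0.805 TPM), most of the sum in sgControl. Neither passed in sgZbtb1 (limma, adjusted p = 0.0799 and 0.0742). The cells were sorted as GFP+hNGFR+, and carry-over of OP9 cells through this gate was not tested. The part of either list in the *Id2* result was not tested. In these bulk libraries, fewer cells with *Id2* and less *Id2* per cell cannot be told apart.

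**Figure D2:**
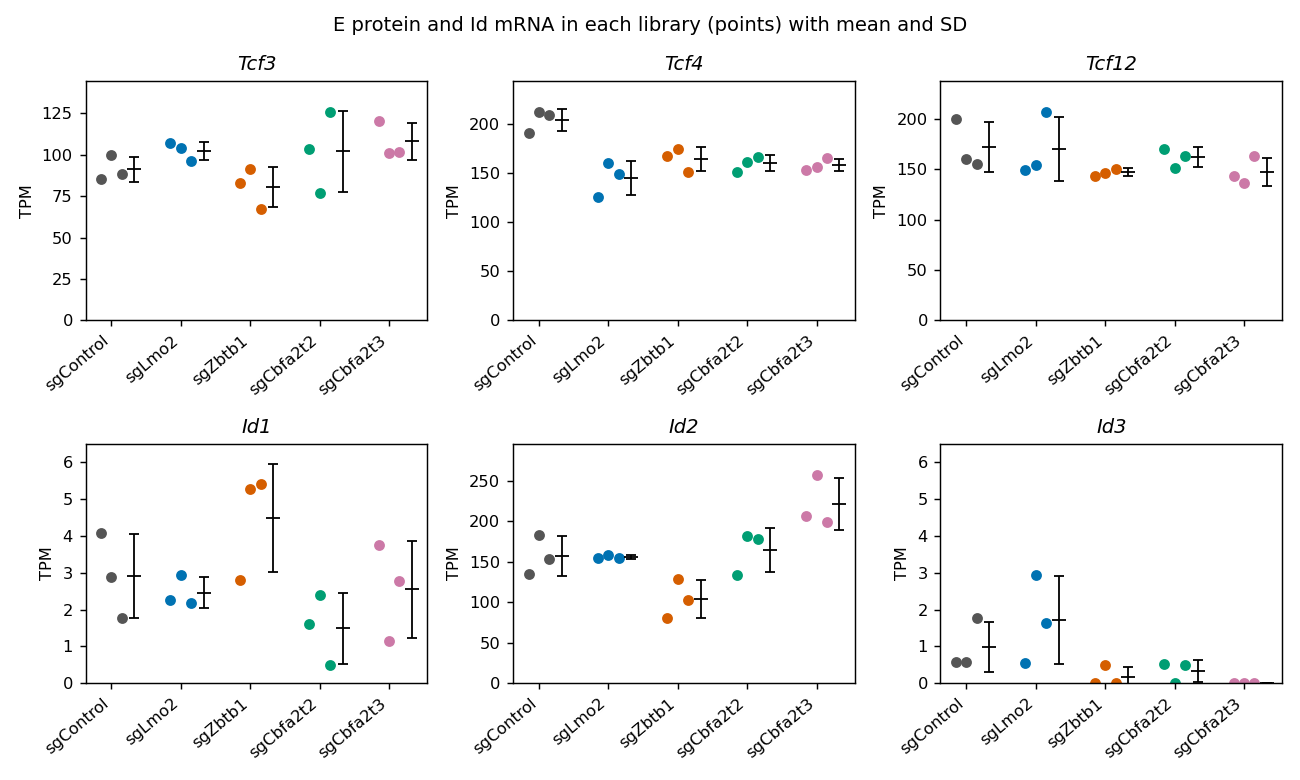
Levels of the 6 genes in TPM (y axis) by condition (x axis), with a point for each of the 3 libraries and the mean with its SD beside them. *Id2* is lowest in sgZbtb1 and highest in sgCbfa2t3, the *Tcf4* points of sgControl lie above all others, and *Id1* and *Id3* stay under 6 TPM.

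The other inhibitors were scarce. *Id1* had 79 reads over the 15 libraries, with 4.07, 2.89 and 1.76 TPM in sgControl, 2.26, 2.93 and 2.19 TPM in sgLmo2, 2.79, 5.26 and 5.4 TPM in sgZbtb1, 1.6, 2.39 and 0.48 TPM in sgCbfa2t2, and 3.75, 1.14 and 2.77 TPM in sgCbfa2t3. The groups overlapped sgControl in every case. The widest difference from sgControl was in sgCbfa2t2 (-0.69, 95% interval -1.75 to 0.38, adjusted p = 0.737), and intervals of this width leave changes of the size seen for *Id2* undetectable at this depth.

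*Id3*, a target of BMP and Egr signalling in other settings, had 18 reads in all. In sgControl the libraries had 1, 1 and 3 reads, in sgLmo2 1, 6 and 3, in sgZbtb1 0, 1 and 0, in sgCbfa2t2 1, 0 and 1, and in sgCbfa2t3 0 in each. Only 1 library was above the 3-read floor, and the gene did not pass the filter of a mean above 1 TPM, so no fold or test is given. A count of 0 allows a level up to that floor.

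Among the E proteins, *Tcf4* and *Tcf12* had more tags than *Tcf3*. *Tcf4* averaged 166 TPM over the 15 libraries, *Tcf12* 159 TPM and *Tcf3* 96.7 TPM. Their means ranked 1101, 1159 and 2072 from the top, where 11554 genes had a mean above 1 TPM. Since these are 3′ tags counted once per transcript and not divided by length, the order of genes can also depend on how well each 3′ end was captured. Of the summed E protein tags, *Tcf4* took 32.9 to 46.2%, *Tcf12* 34.0 to 45.8% and *Tcf3* 17.9 to 28.8%.

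In sgControl *Tcf4* had 190.5, 211.8 and 208.7 TPM. The sgLmo2 libraries had 126.1, 160.4 and 148.5 TPM and the sgZbtb1 libraries 167.6, 174.5 and 150.7 TPM. In sgCbfa2t2 there were 151.1, 161.3 and 166.6 TPM and in sgCbfa2t3 153.3, 155.9 and 165.1 TPM. All 12 lay below all 3 sgControl libraries, which was so for 0.606% of the genes tested. The 4 comparisons share those 3 libraries, so they are not 4 separate observations of a lower level.

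Against sgControl the log2 difference of *Tcf4* was largest in sgLmo2, at -0.49 (SE 0.11, adjusted p = 0.11). It was -0.36 in sgCbfa2t3 (SE 0.11, adjusted p = 0.142), -0.35 in sgCbfa2t2 (SE 0.11, adjusted p = 0.245) and -0.31 in sgZbtb1 (SE 0.11, adjusted p = 0.0925). None passed, although all 4 had an unadjusted p under 0.05, as did 5.65% of all genes in sgLmo2, 10.6% in sgCbfa2t3, 9.56% in sgCbfa2t2 and 17.6% in sgZbtb1. The difference in sgLmo2 passed in 2 alternatives, DESeq2 (adjusted p = 0.0215) and a limma fit with the replicate number as a block. Differences between the targeted conditions ran from -0.05 to 0.18, none of them called, and the 95% interval of sgZbtb1 minus sgLmo2, the largest, was -0.04 to 0.41.

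The sgControl libraries had 199.8, 160.3 and 154.8 TPM of *Tcf12*, and the sgLmo2 libraries 149.3, 154.0 and 206.5 TPM. It was at 143.0, 146.3 and 150.7 TPM in sgZbtb1, at 170.3, 151.3 and 163.3 TPM in sgCbfa2t2 and at 143.2, 136.5 and 162.9 TPM in sgCbfa2t3. The sgZbtb1 libraries lay just under those of sgControl, as for 12.8% of all genes, and the other groups overlapped it. Its log2 differences ran from -0.22 (sgZbtb1, 95% interval -0.45 to 0.02, adjusted p = 0.352) to -0.02 (sgLmo2, 95% interval -0.26 to 0.22, adjusted p = 0.997). The 5 Cbfa2t3 peaks at this gene stood beside a difference of -0.21 in sgCbfa2t3 (95% interval -0.45 to 0.03, adjusted p = 0.541). Several short gene models of uncertain coding status lie within *Tcf12* on its own strand, with tags that the counting may have divided from it, the highest at a mean of 3.09 TPM.

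For *Tcf3* the sgControl libraries had 85.4, 99.6 and 88.5 TPM and the sgLmo2 libraries 106.9, 104.1 and 96.4 TPM. It was at 82.7, 91.3 and 67.3 TPM in sgZbtb1, at 103.2, 76.8 and 125.6 TPM in sgCbfa2t2 and at 120.1, 101.1 and 101.4 TPM in sgCbfa2t3. The sgCbfa2t3 libraries lay just above those of sgControl, groups that did not overlap for 15.8% of all genes, and the others overlapped it. Against sgControl the log2 differences were between -0.19 (sgZbtb1, 95% interval -0.48 to 0.10, adjusted p = 0.544) and 0.23 (sgCbfa2t3, 95% interval -0.05 to 0.52, adjusted p = 0.601). Between sgCbfa2t3 and sgZbtb1, the factors with a peak at its promoter, the difference was 0.42 (SE 0.14, adjusted p = 0.185), which did not pass.

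**Figure D3:**
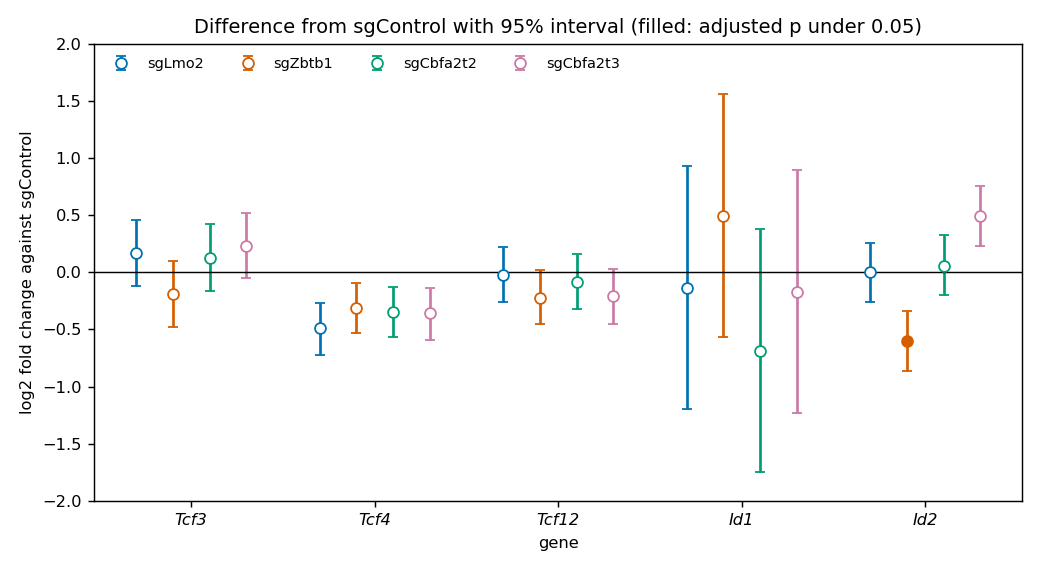
Log2 fold change on the log2(TPM + 1) scale against sgControl (y axis) with its 95% interval for the 5 members tested (x axis), colored by sgRNA. The only filled point, which passed an adjusted p of 0.05, is *Id2* in sgZbtb1 at -0.60, and the 4 *Tcf4* points lie between -0.49 and -0.31.

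In counts, the limma fit called 1 of the 5 tested members against sgControl in sgZbtb1 and 0 in sgLmo2, sgCbfa2t2 and sgCbfa2t3, where 0.0173%, 0.147% and 0.537% of all genes were called, beside 4.79% in sgZbtb1. At an unadjusted p under 0.05 there was 1 in sgLmo2 (5.65% of all genes) and in sgCbfa2t2 (9.56%), namely *Tcf4*, and there were 2 in sgZbtb1 (17.6%) and in sgCbfa2t3 (10.6%), *Tcf4* and *Id2*. On the recovered reads edgeR called 1 member in sgZbtb1 (4.92% of all genes) and in sgCbfa2t3 (0.502%) and 0 in sgLmo2 (0.0173%) and sgCbfa2t2 (0.147%). DESeq2 called 1 in sgLmo2, sgZbtb1 and sgCbfa2t3 and 0 in sgCbfa2t2, beside 0.0260%, 4.78%, 1.52% and 0.675% of the genes to which it gave an adjusted p, which left out *Id1* in sgCbfa2t2 and sgCbfa2t3. With 3 libraries against 3, an exact two-sided permutation test of a single gene cannot give a p below 0.1, the value for *Id2* in sgZbtb1 and in sgCbfa2t3.

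As a description, the summed E protein tags were set against the summed Id tags in each library. The E protein sum was 467 ± 12.9 TPM in sgControl (SD, n = 3), and the group means elsewhere ran from 391 TPM (sgZbtb1) to 423 TPM (sgCbfa2t2). The ratio of E protein to Id tags was 2.95 ± 0.453 in sgControl and highest in sgZbtb1, at 3.72 ± 0.854 (SD, n = 3 each). It was 2.61 ± 0.216 in sgLmo2 and 2.60 ± 0.513 in sgCbfa2t2, and lowest in sgCbfa2t3, at 1.88 ± 0.318. The 3 sgCbfa2t3 libraries, at 1.52 to 2.13, lay below all sgControl libraries, at 2.53 to 3.43, while sgZbtb1, at 3.07 to 4.69, overlapped sgControl. The ratio follows *Id2*, which is nearly all of its denominator, and counts mRNA and not protein.

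**Figure D4:**
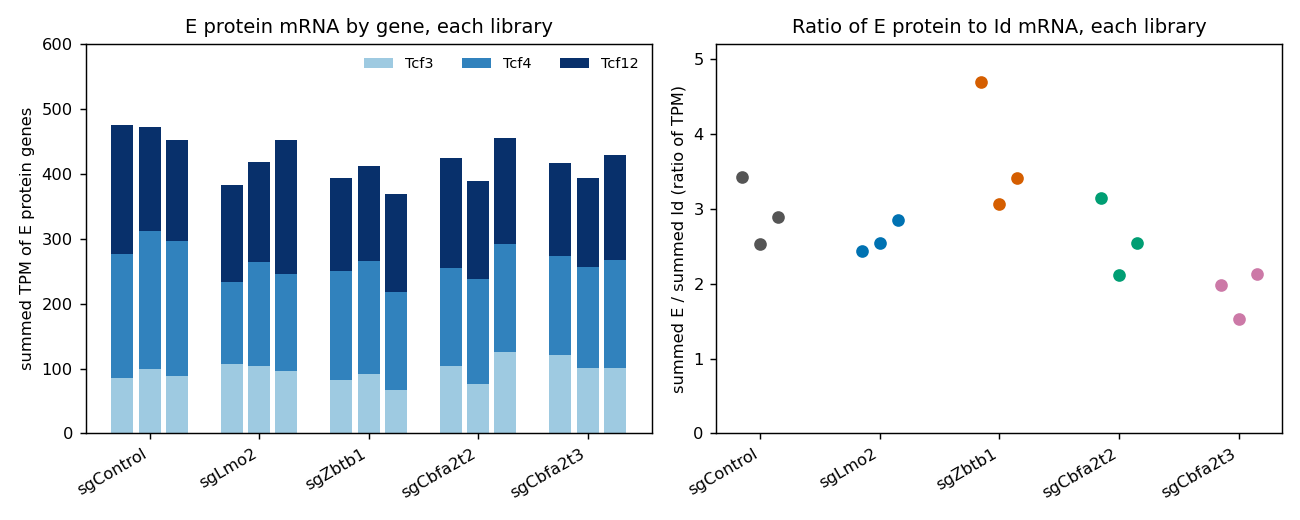
Left, summed TPM of *Tcf3*, *Tcf4* and *Tcf12* (y axis) as stacked bars for each of the 15 libraries, grouped by sgRNA (x axis). Right, the ratio of that sum to the summed *Id1*, *Id2* and *Id3* TPM (y axis), 1 point per library, with sgCbfa2t3 lowest at 1.52 to 2.13 and sgZbtb1 between 3.07 and 4.69.

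Partners and cofactors of E proteins were read from the same fit. Of 16 other bHLH and Id genes 4 were tested, and *Lyl1*, an E protein partner in Lmo2 complexes, was higher in sgZbtb1 (160 ± 6.63 TPM in sgControl, 228 ± 14.0 TPM in sgZbtb1, SD, n = 3, log2 difference 0.51, adjusted p = 0.000943). *Tal1*, its close relative, was low throughout, at 0.972 ± 0.681 TPM in sgControl, 2.66 ± 0.547 TPM in sgLmo2, 3.49 ± 2.08 TPM in sgZbtb1, 2.11 ± 3.20 TPM in sgCbfa2t2 and 1.09 ± 1.07 TPM in sgCbfa2t3, and was called in none. Of 18 genes of the Lmo2 complex and E protein cofactors 15 were tested, and in sgZbtb1 *Runx1*, a core hematopoietic transcription factor (-0.83, SE 0.10, adjusted p = 3.28e-09), and *Lmo4*, a LIM-only relative of Lmo2 (-0.59, SE 0.13, adjusted p = 0.00285), fell, while *Zbtb1* itself was called higher. These were 1 of 4 and 3 of 15 genes, beside 4.79% of all genes. In sgCbfa2t3, *Cbfa2t3* was called higher and no other gene of the 15, beside 0.537% of all genes. No gene of either list was called in sgLmo2 or sgCbfa2t2. At an unadjusted p under 0.05 there were 0 of 4 and 0 of 15 in sgLmo2 (5.65% of all genes), 1 and 4 in sgCbfa2t2 (9.56%) and 1 and 3 in sgCbfa2t3 (10.6%).

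Genes regarded as E protein targets in lymphocyte precursors were called in both directions. Of 28 listed, 19 were tested and 3 were called in sgZbtb1, beside 4.79% of all genes. *Cdkn1a*, the cell cycle inhibitor p21, rose (491 ± 15.4 to 678 ± 48.8 TPM, adjusted p = 0.000496), while *Ebf1* (336 ± 30.5 to 217 ± 6.74 TPM, adjusted p = 6.96e-06) and *Pax5* (6.80 ± 1.51 to 0.81 ± 0.747 TPM, adjusted p = 0.0042), factors of B cell commitment, fell. The median log2 difference of the 19 was 0.02, beside -0.03 over all genes. *Dntt*, which adds bases at antigen receptor joints, had 78.2 ± 6.83 TPM in sgControl beside 116 ± 18.1 TPM in sgCbfa2t3 (adjusted p = 0.102), and *Il7r* at 161 ± 11.8 and 206 ± 12.5 TPM in sgControl and sgLmo2 (adjusted p = 0.713). None of the 19 was called by limma in sgLmo2, sgCbfa2t2 or sgCbfa2t3, where 4, 2 and 4 had an unadjusted p under 0.05, beside 5.65%, 9.56% and 10.6% of all genes.

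Genes of the BMP, TGF-beta and Egr routes that can induce Id genes numbered 17, with 10 tested. *Tgfbr1*, the type I TGF-beta receptor, fell in sgZbtb1 from 32.4 ± 5.60 to 14.2 ± 1.42 TPM (SD, n = 3, log2 difference -1.13, SE 0.27, adjusted p = 0.00505), the only call among the 10, beside 4.79% of all genes. *Smad7*, an inhibitory Smad, was at 25.6 ± 3.20 and 13.9 ± 2.16 TPM and did not pass (adjusted p = 0.0606). None of the 10 was called in the other conditions, where 1 in sgLmo2, 1 in sgCbfa2t2 and 2 in sgCbfa2t3 had an unadjusted p under 0.05, beside shares of all genes of 5.65%, 9.56% and 10.6%.

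Progenitor markers differed in the same libraries. In sgZbtb1, *Cd34* and *Cd93* rose and *Kit*, *Ly6d* and *Ptprc* fell, 5 of the 10 listed beside 4.79% of all genes, and *Ly6d*, which marks B-lineage specified progenitors, went from 158 ± 26.1 TPM in sgControl to 29.4 ± 6.75 TPM (adjusted p = 3.19e-20). *Ly6d* also fell in sgCbfa2t2 (97.1 ± 3.54 TPM, adjusted p = 0.0186) and in sgCbfa2t3 (57.9 ± 8.52 TPM, adjusted p = 6.82e-10), the only call of the 10 in each, beside 0.147% and 0.537% of all genes. No myeloid marker of the 4 tested was called against sgControl in any condition, while an unadjusted p under 0.05 was seen for 1, *Mpo* in sgLmo2 (5.65% of all genes). Of the erythroid list *Hbb-bt* alone was tested and was higher in sgCbfa2t3 (130 ± 17.3 to 217 ± 52.0 TPM, adjusted p = 0.00303).

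The genes most like each member over the 15 libraries were taken from 8156 others with a mean above 10 TPM. For *Id2* they were *Lmo4* (Pearson r = 0.884), *Tcrg-C1* (0.853) and *Ptp4a3* (0.834). *Lmo4* was at 121.8, 168.3 and 172.8 TPM in sgZbtb1, 178.9, 238.5 and 285.6 TPM in sgControl and 261.1, 324.3 and 301.9 TPM in sgCbfa2t3, with its lowest and highest group means in the same conditions as *Id2*. *Tcrg-C1*, a T cell receptor gamma constant segment, was at 357.5 to 386.8 TPM in sgZbtb1, 418.7 to 531.3 TPM in sgControl and 520.6 to 607.0 TPM in sgCbfa2t3. For *Tcf4* they included *Bcl11a* (0.788) and *Tasor2* (0.774), for *Tcf12* *Cdk17* (0.790), *5830418P13Rik* (0.784) and *Bet1l* (0.783), and for *Tcf3* *Chm* (0.782), *Arfgap3* (0.776) and *Topbp1* (0.771). These are the extremes of many correlations over libraries that share depth and condition, and they are given as a description. Between the members themselves, *Tcf3* and *Id2* correlated at 0.571, and the other pairs of the 4 abundant members lay between -0.162 and 0.133.

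**Figure D5:**
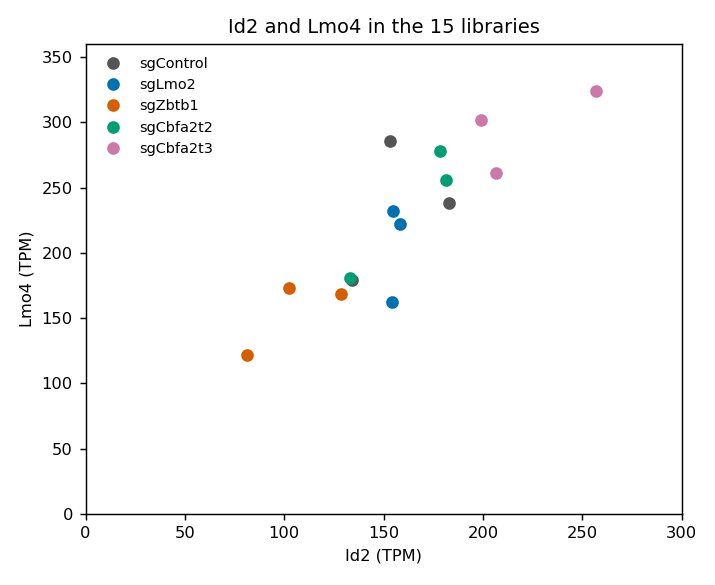
*Lmo4* (y axis, TPM) against *Id2* (x axis, TPM) in the 15 libraries, 1 point per library, colored by sgRNA. The sgZbtb1 points sit farthest left, at 81.0 to 128.6 TPM of *Id2*, with 1 sgLmo2 point at 162.3 TPM of *Lmo4* below the upper pair of them, and the sgCbfa2t3 points at 198.9 to 256.9 TPM sit farthest right.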

How the data were processed

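Poly(A) RNA of 15 LP libraries was read as 3′ tags (QuantSeq FWD, NextSeq500, 75 bp), with fastp and STAR on mm10, as the study and the submitters' processing notes name them. Counting strand is not given in the sources used here. The deposited TPM values are CPM, scaled to each library's total, since they are not divided by gene length: in units of the value of 1 read, 100% came out whole within 0.1 read, and edgeR and DESeq2 were run on these recovered counts as alternatives. The line without an identifier held at most 0.0001% of a library. Columns of the authors' means and tests (18) were not used. ChIP-seq peaks were called by the authors with Bowtie 1.1.1 and HOMER against input and kept where reproducible in 2 replicates, and the deposited score of each peak was used as given (lowest 15.0 for Zbtb1 and 20.6 for Cbfa2t3). The deposited focus ratio, the fraction of a peak's tags near its centre as HOMER writes it, was carried along and not used in a comparison.

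log2(TPM + 1) of the 11554 genes with a mean above 1 TPM was fitted in limma 3.58.1 (R 4.3.3) with all 15 libraries and a trended prior, with Benjamini-Hochberg adjustment over all genes and a threshold of 0.05. On simulated data for sgZbtb1 against sgControl, 200 of 11554 genes were changed by 2 on the log2 scale. Of these, 81.5% were called, along with 10 unchanged genes. Smaller changes, such as those of the members, were not simulated, so the power for them is not given. edgeR 4.0.16 (quasi-likelihood), DESeq2 1.42.0, pandas 2.3.3, pysam 0.24.0 and bedtools 2.31.1 were also used. Alternatives were a pseudocount of 0.1, no filter, a mean above 10, the 6 libraries compared, a replicate block, median-of-ratios scaling, the study's thresholds (unadjusted p, a log2 change above 1, a mean above 10) and each library left out. For peaks they were a score of at least 30, an overlap of 50% and distances within 100 kb. The text names the 6 members, list genes called against sgControl and the 3 most similar genes per member, with a few others by role chosen after their values were seen. A similar gene of *Tcf4* is not reported here. The members and lists were chosen with earlier results of these data known. Gene models are GENCODE vM21 and sequence is the GRCm38 (mm10) reference. Intervals and floors cover counting error or the spread of these libraries only.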

Additional observations from a re-analysis of the deposited data

Results flagged for a closer look

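*Id2* is listed here because its difference from sgControl was not the same in 2 conditions. It was -0.60 in sgZbtb1 and 0.49 in sgCbfa2t3 on the log2(TPM + 1) scale, and the direct comparison of the libraries gave 1.09 (limma, adjusted p = 1.5e-08), higher in 3 of 3 sgCbfa2t3 libraries than in all sgZbtb1 libraries, groups that did not overlap for 14.6% of all genes. Both differences use the same 3 sgControl libraries, and the estimate of 1.09 does not, although all 15 libraries enter the spread behind its p.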

How the results depend on the processing

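Over the alternatives, 356 of 393 values of single members kept their direction and side of the threshold, 3 were weaker, 12 were newly called and 22 changed sign, none of those called. Members called in sgLmo2 went from 0 to 1 (*Tcf4*) with the replicate block (adjusted p = 0.0225) and with DESeq2, and from 0 to 1 (*Id2*) in sgCbfa2t3 with the 6 libraries, the replicate block (0.0112), median-of-ratios scaling, edgeR and DESeq2. Leaving out libraries gave 0 to 1 members in sgZbtb1, in sgCbfa2t3, in sgZbtb1 against sgLmo2 and in sgCbfa2t3 against sgLmo2, and the study's thresholds gave 0 in sgZbtb1. The count in sgCbfa2t3 against sgLmo2 was 1 with the replicate block (0.00807) and 1 with edgeR. The block changed no other call. Same-numbered libraries were not taken as pairs: their deviations from the group means correlated at 0.0408 on average (30 pairs, -0.0131 to 0.113). The -0.0204 for different numbers is no separate comparison, since the deviations in a group sum to 0. Of the 15 libraries, 13 correlated best with their own number, and an effect shared by replicate number was not tested further. The cause was not tested for any of these. Sign changes fell on differences near 0. *Id2* in sgLmo2 went from 0.00 to -0.01 with median-of-ratios scaling, -0.02 with edgeR and -0.03 with DESeq2. With 1 library left out, the values ran from -0.10 to 0.12 for *Id2* in sgLmo2, -0.04 to 0.21 in sgCbfa2t2 and -0.02 to 0.21 in sgCbfa2t2 against sgLmo2, -0.17 to 0.09 for *Tcf12* in sgLmo2 and -0.15 to 0.03 in sgCbfa2t2, -0.37 to 0.07 for *Id1* in sgLmo2 and -0.42 to 0.16 in sgCbfa2t3, -0.03 to 0.32 for *Tcf3* in sgCbfa2t2, and -0.10 to 0.01 and -0.05 to 0.02 for *Tcf4* in sgCbfa2t2 against sgZbtb1 and in sgCbfa2t3 against sgCbfa2t2. Member peaks with a score of at least 30 numbered 2 for Zbtb1 and 5 for Cbfa2t3, and 0 sites were shared at 50% overlap. The distance rule chosen after seeing the data gave 11 Zbtb1 and 22 Cbfa2t3 peaks. Depth leaves *Id1* and *Id3* without usable comparisons.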
